A study of Rattus norvegicus with 30 samples.

Results

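The renal outer medulla (OM) after 21 d of a high salt diet (HS21) was compared with the OM of rats kept on low salt (LS). Members were chosen by their labels: the 5 OM libraries of the HS21 group, replicates 11 to 15, and the 5 OM libraries of the LS group, replicates 1 to 5, which are 10 of the 30 mRNAseq libraries of the series. All came from the right kidney of Sprague-Dawley rats, given by the study as male. LS rats ate a purified diet with 0.4% NaCl, and HS21 rats ate the same diet before a switch to 4.0% NaCl for 21 d. No genetic change or drug was part of either group, and the age of the rats whose tissue was sequenced was not given in the sources used here. Poly(A) RNA was taken from snap-frozen tissue cut from the OM by dissection, so each library pools every cell of its piece, and a change in the number of cells of a type cannot be told apart from a change in RNA per cell. The labels name separate samples without naming animals, so that *P* values measure the spread between these samples. The 5 OM libraries of HS14 (14 d of high salt) and the Cx (cortex) libraries of LS and HS21 were used only where stated.

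The OM holds the medullary thick ascending limb, which reabsorbs NaCl through the cotransporter NKCC2, together with straight proximal tubules, collecting ducts and bundles of vasa recta. Leukocytes enter the renal interstitium along chemokines made in the tissue, bind to vessel walls by their integrins, and read peptides displayed on MHC molecules. Much of the machinery that cuts and loads these peptides is induced by interferon-γ, a product of T and NK cells. Tubule and interstitial cells of the adult kidney divide rarely, and cells that do divide switch on a set of mitotic genes late in the cycle through short promoter elements, the CHR and the CCAAT box.

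Counts on genes totalled 12748841 to 14838776 in the LS libraries and 12899490 to 15810724 in the HS21 libraries. In the study's mapping summary, HS21 replicates 13, 14 and 15 had a lower intronic share than the other libraries compared. The bearing of this on the levels below was not tested. Levels are given as CPM, counts scaled by TMM to a common library size, in the order of replicates 1 to 5 for LS and 11 to 15 for HS21. The labelled tissue carried its markers: *Slc12a1* (NKCC2) had a median of 12.46 log2 CPM in OM LS and 12.21 in OM HS21 against 8.44 in Cx LS, and *Umod* (uromodulin, also of the thick ascending limb) 13.43 and 13.09 against 10.14. Genes of the cortex were uneven. The mean log2 CPM of 9 cortical marker genes was 1.12, 6.11, 3.51, 2.99 and 0.62 in the LS libraries and 1.65, 3.50, 3.98, 4.78 and 3.94 in the HS21 libraries. OM LS replicate 2 stood apart, with *Slc12a3* of the distal convoluted tubule at 9.32, 377, 21.99, 16.2 and 12.9 CPM in LS. Results are therefore given with and without this library, and its removal turned the direction of *Slc12a3*, from -1.504 to 1.03 on the log2 scale, not past the threshold in either fit. Without it the median log2 ratio of the 9 was 1.24 and 1 of them, *Synpo* of the podocyte, was raised (0.89 ± 0.16, adjusted *P* = 0.048). With the mean of these genes as a covariate in the fit, all 93 raised and 19 lowered genes kept their calls, among 707 raised and 164 lowered.

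In the OM at HS21, leukocyte genes were raised and mitotic genes lowered. Of the genes tested, 93 of 14555 were raised, which is 0.639%, and 19 were lowered, which is 0.131% (edgeR quasi-likelihood, adjusted *P* under 0.05). Without OM LS replicate 2, 77 of 14765 genes were raised (0.522%) and 31 lowered (0.21%), and 63 of the 93 and 16 of the 19 remained among them. Raised genes had log2 ratios of HS21 over LS from 0.40 to 3.91, with a median of 1.66, and lowered genes from -2.33 to -0.44, with a median of -1.35. The median over all genes tested was -0.03. Of the 93 raised genes, 33 were members of the 51 gene lists used here, most of them lists of leukocytes and their signals, and 11 of the 19 lowered genes act in mitosis. The lists hold 551 of the 14555 genes tested. They were chosen with earlier results of these data known, so the 33 and their leukocyte make-up partly reflect that choice. Over all genes, the 5 HS21 libraries lay above the 5 LS libraries for 370 genes (2.54%) and below them for 153 (1.05%). Among the genes called, 91 of the 93 raised and all 19 lowered showed this separation, the 2 exceptions being *Cxcl9* and *RGD1305184*. The unadjusted test passed 1012 genes upwards (6.95%) and 625 downwards (4.29%).

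**Figure D1:**
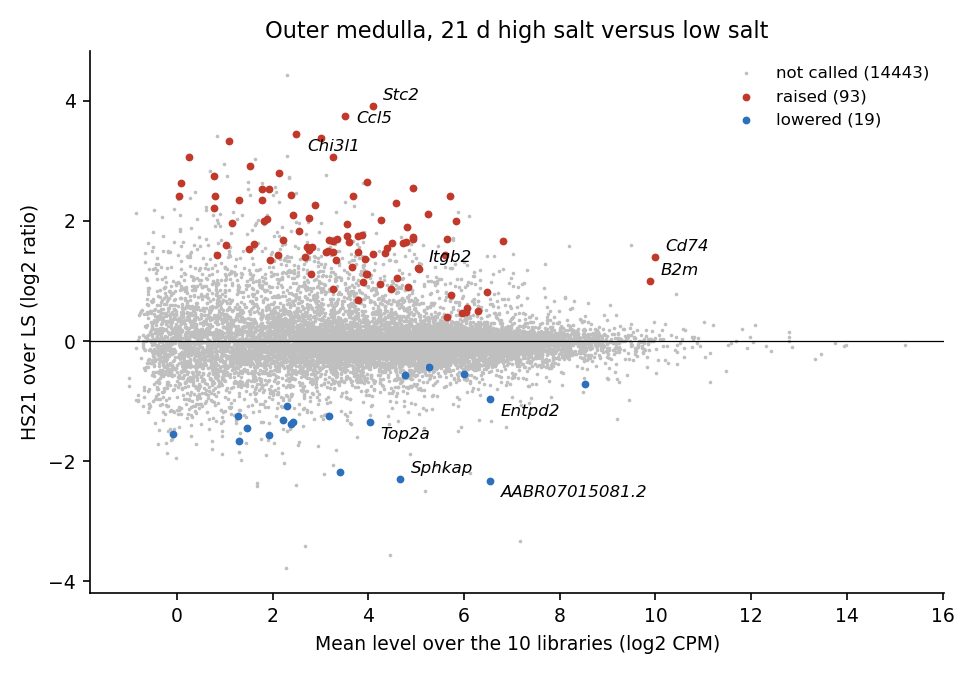
Change of each of the 14555 genes tested (y axis, log2 ratio of HS21 over LS in the OM) against its mean level (x axis, log2 CPM over the 10 libraries). The 93 raised genes are red and the 19 lowered genes blue; most coloured genes lie above 0, and Stc2 at 3.91 and Ccl5 at 3.74 are the highest of them; the lowest is AABR07015081.2 at -2.33.

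The calls depended on single libraries. Leaving out 1 library at a time gave 9 to 159 raised and 0 to 31 lowered genes, and 8 raised genes and 0 lowered genes were called each time. These 8 were *Itgb2*, *Itgal* and *Itgax*, which encode integrin chains of leukocytes, *Fgr*, a Src family kinase of myeloid cells, *Myo1g*, a myosin of the leukocyte membrane, *Rasal3*, a Ras regulator of blood cells, *Pou2f2*, the lymphoid transcription factor OCT2, and *Chi3l1*, a chitinase-like secreted protein. Raised genes shared an order of libraries within the groups. HS21 replicate 13 was the lowest of its group for 76 of the 93 and HS21 replicate 15 the highest for 49, while LS replicate 2 was the lowest of its group for 59. Without HS21 replicate 13 the counts were 159 raised and 16 lowered, and without LS replicate 3 they were 9 and 0.

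Chemokines that draw T and NK cells were among the genes raised. Of 15 chemokine ligands tested, 3 were raised (*Ccl5*, *Cxcl9* and *Cxcl16*) and 0 lowered, with a median log2 ratio of 1.09, and of 7 chemokine receptors 1 was raised (*Cxcr6*). *Ccl5* (RANTES, chr10:70739800-70744315 on Rnor_6.0), a chemokine that draws T cells, stood at 2.20, 1.09, 1.24, 1.39 and 2.002 CPM in LS and at 22.8, 7.11, 3.64, 23.6 and 49.8 CPM in HS21. Every HS21 library lay above every LS library, but the HS21 values spread more than 10-fold. *Cxcl9*, an interferon-γ-induced ligand of CXCR3, stood at 4.86, 1.73, 3.99, 3.48 and 7.43 CPM in LS and 28.5, 21.4, 7.22, 37.5 and 40.9 CPM in HS21, where HS21 replicate 13 lay just under LS replicate 5 and the other 4 lay far above. The log2 ratio of *Cxcl9* was 2.65 ± 0.48, adjusted *P* = 0.0405. Without OM LS replicate 2 neither kept its call, at 3.64 ± 0.74, adjusted *P* = 0.063 for *Ccl5* and 2.46 ± 0.48, adjusted *P* = 0.0579 for *Cxcl9*.

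*Cxcl16* and *Cxcr6* are ligand and receptor of one pair, and *Cxcr6* is carried by resident and effector T cells. *Cxcl16* rose from 76.0, 64.5, 66.3, 53.0 and 64.3 CPM to 119, 106, 97.7, 129 and 122 CPM, with no overlap and a log2 ratio of 0.82 ± 0.11, adjusted *P* = 0.0194 (0.82, adjusted *P* = 0.0383 without OM LS replicate 2). *Cxcr6* was barely detected in LS, at 0.200, 0.364, 0.687, 0.279 and 0.357 CPM, and reached 4.58, 1.76, 1.72, 4.65 and 6.56 CPM in HS21. Its log2 ratio was 3.32 ± 0.49, adjusted *P* = 0.0278, and 3.32 ± 0.55, adjusted *P* = 0.0413 without OM LS replicate 2. *Cxcr6* passed the filter on low counts only through its HS21 libraries, so its place among the receptors tested was not independent of the change. The other ligands gave values without a call, such as *Cxcl12* at 0.67 ± 0.13, adjusted *P* = 0.0521 and *Cxcl10* at 1.42 ± 0.39, adjusted *P* = 0.135. The receptor *Cxcr3* did likewise, at 1.97 ± 0.45, adjusted *P* = 0.0816.

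Among 17 T cell genes tested, 2 were raised and 0 lowered, the median log2 ratio was 1.39 and 16 lay above 0. The 2 were *Cd2*, an adhesion receptor of T and NK cells, at 1.26, 0.819, 1.37, 0.836 and 1.29 CPM in LS and 6.10, 2.75, 2.18, 6.94 and 10.8 CPM in HS21 (2.36 ± 0.44, adjusted *P* = 0.0431), and *Cd6*, a costimulatory receptor, at 4.93, 3.46, 3.30, 2.58 and 3.29 and 7.82, 10.2, 7.02, 10.3 and 10.8 CPM (1.39 ± 0.20, adjusted *P* = 0.0278). HS21 libraries lay above LS libraries for both, and *Cd2* lost its call without OM LS replicate 2 (adjusted *P* = 0.0674) while *Cd6* kept it (0.0413). The defining T cell genes were near 1 CPM in LS. *Cd3e* of the T cell receptor complex was at 1.40, 0.0910, 1.17, 0.418 and 1.36 CPM in LS and at 6.30, 2.98, 2.32, 4.78 and 8.10 CPM in HS21 (2.43 ± 0.56, adjusted *P* = 0.0817). *Zap70*, the kinase of that receptor, gave 2.64 ± 0.52, adjusted *P* = 0.0521, *Cd8a* 1.48 ± 0.34, adjusted *P* = 0.0816 and *Cd4* 1.22 ± 0.33, adjusted *P* = 0.128. Of 10 cytotoxic and NK genes, 1 was raised and 0 lowered, with a median of 1.97. This was *Tbx21* (T-bet), the transcription factor of type 1 lymphocytes, at 0.732, 0.182, 0.962, 0.557 and 0.858 CPM in LS and 5.60, 3.21, 1.59, 5.09 and 9.91 CPM in HS21 (2.91 ± 0.52, adjusted *P* = 0.0392, and adjusted *P* = 0.0521 without OM LS replicate 2). The granzymes *Gzmk* (3.41 ± 0.71, adjusted *P* = 0.0653) and *Gzmm* (3.02 ± 0.60, adjusted *P* = 0.0552) had as large a ratio without a call. The mean log2 CPM of the 10 cytotoxic and NK genes was -0.91 to 0.096 in LS. Genes this low can pass the filter on low counts through their HS21 libraries, so this count and median may not be independent of the change. The same holds for T cell genes near 1 CPM in LS, such as *Cd3e*. None of the 5 B and plasma cell genes tested was called, with a median of 0.11 and log2 ratios from -0.33 to 0.58.

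Genes of both arms of antigen presentation were raised. Of 12 MHC class I genes tested 4 were raised and 0 lowered, with all 12 log2 ratios above 0 and a median of 1.17, and of 8 MHC class II genes 2 were raised and 0 lowered, with a median of 1.41. Without OM LS replicate 2, 2 of the 12 class I genes and 3 of the 8 class II genes were raised. *Psmb8* and *Psmb9* encode catalytic subunits of the immunoproteasome. *Psmb8* stood at 11.7, 3.46, 7.35, 6.97 and 8.72 CPM in LS and 36.6, 30.6, 22.7, 32.3 and 32.2 CPM in HS21, with every HS21 value far above every LS value (2.01 ± 0.27, adjusted *P* = 0.0194; 1.83 ± 0.19, adjusted *P* = 0.00691 without OM LS replicate 2). *Psmb9* went from 8.10 to 18.2 CPM to 22.2 to 62.4 CPM (1.73 ± 0.29, adjusted *P* = 0.0327) and *Tapbp*, the tapasin that holds class I molecules at the peptide transporter, from 61.0 to 71.4 CPM to 75.7 to 104 CPM (0.51 ± 0.10, adjusted *P* = 0.0451). *Psmb9* (chr20:3973420-3978845), *Psmb8* (chr20:3990613-3993769) and *Tapbp* (chr20:5468056-5476007) are placed on chromosome 20 of Rnor_6.0, within 2 Mb. *Tap1*, the transporter itself, gave 1.68 ± 0.34, adjusted *P* = 0.0604. The RT1 genes of both classes are near-identical copies of each other, so counts may be split between them, and their values are uncertain.

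*B2m*, the light chain of every class I molecule, stood at 683, 554, 616, 624 and 682 CPM in LS and 1363, 1161, 799, 1399 and 1614 CPM in HS21. All 5 HS21 values were above all LS values, HS21 replicate 13 the nearest to them, with a log2 ratio of 1.004 ± 0.17, adjusted *P* = 0.0344, and 0.96 ± 0.18, adjusted *P* = 0.0564 without OM LS replicate 2. The 250 bases before its RefSeq start (chr3:129549080-129549329 on GRCr8, plus strand) are shown because this promoter holds both an interferon-stimulated response element (ISRE, searched as GAAANNGAAA) and an NF-kB site (searched by its consensus), which are set in capitals.
B2m: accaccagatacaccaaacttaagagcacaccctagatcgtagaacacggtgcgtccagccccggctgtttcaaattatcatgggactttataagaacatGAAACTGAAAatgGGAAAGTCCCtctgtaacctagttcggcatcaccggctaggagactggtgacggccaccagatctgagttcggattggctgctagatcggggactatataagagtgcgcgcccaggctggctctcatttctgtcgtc
The 2 motifs begin 150 and 137 bases before the start and do not overlap. Searched on both strands of the same window, an ISRE was in 8 of the 63 raised genes with a RefSeq promoter (12.7%) and in 2.71% of the 10038 promoters of all genes tested. The NF-kB consensus was in 5 of the 63 (7.94%) and in 4.29% of all. The TTTGAA and CCAAT matches of this promoter are left in lower case. A match is a description of letters and not a site of binding.

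On the class II side, *Ciita* encodes the transactivator of the class II genes and *Cd74* the invariant chain. *Ciita* stood at 13.9, 8.19, 9.62, 10.5 and 12.3 CPM in LS and 36.8, 24.98, 17.7, 41.6 and 49.0 CPM in HS21 (1.64 ± 0.27, adjusted *P* = 0.0298), and *Cd74* at 707, 318, 627, 503 and 654 and 1853, 1143, 980.4, 1634 and 1806 CPM (1.40 ± 0.25, adjusted *P* = 0.0392). Both were separated between the groups, and both kept their calls without OM LS replicate 2 (adjusted *P* = 0.0492 and 0.0418). That library held the lowest level of both. *RT1-Da*, a class II α chain, had a log2 ratio of 1.58 ± 0.31, adjusted *P* = 0.0521, which passed the threshold without OM LS replicate 2 (1.40 ± 0.25, adjusted *P* = 0.0443).

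**Figure D2:**
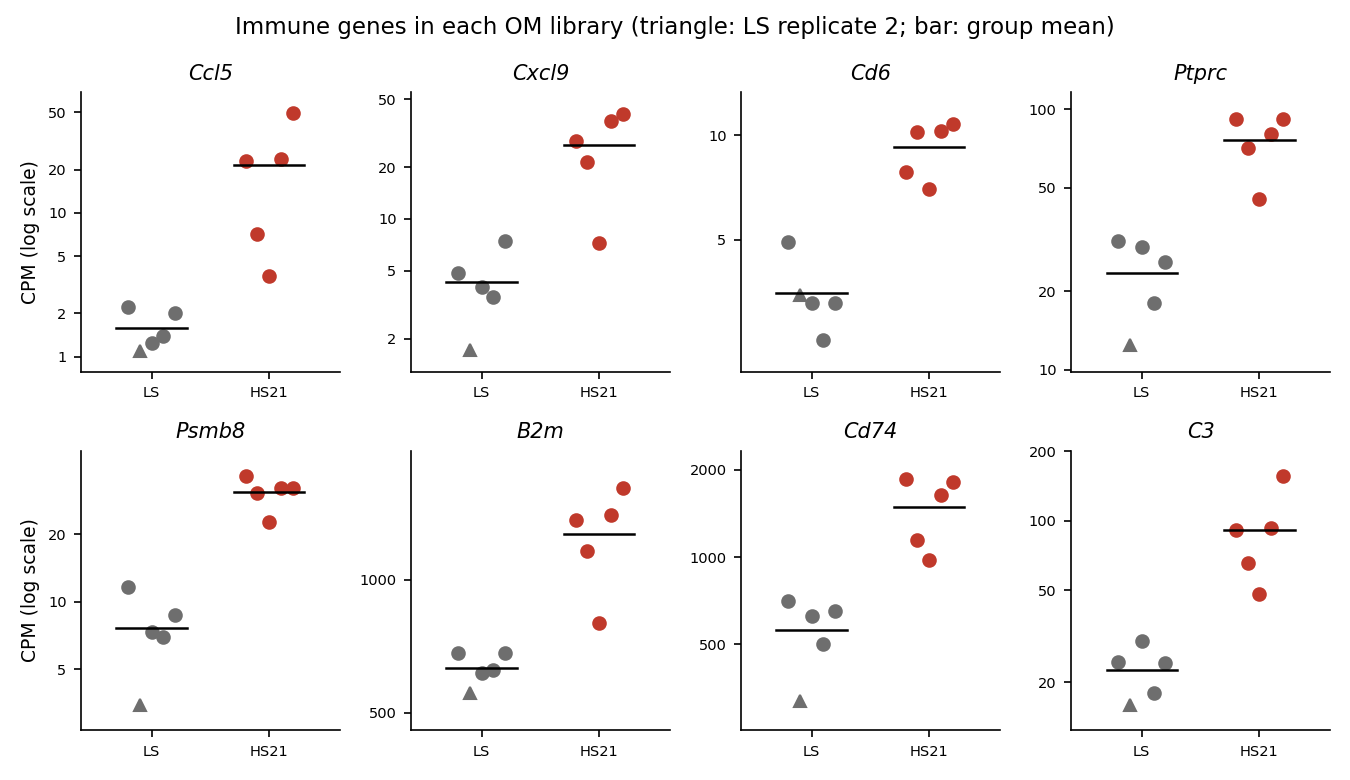
Level of 8 immune genes in each of the 10 OM libraries (y axis, CPM on a log scale), with LS replicates 1 to 5 as grey circles, OM LS replicate 2 as a grey triangle, HS21 replicates 11 to 15 as red circles and the group mean as a bar. HS21 lay above LS in every panel but that of Cxcl9, where HS21 replicate 13 was at 7.22 CPM and LS replicate 5 at 7.43 CPM.

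Genes carried by most leukocytes gave the fullest count. Of 14 such genes tested, 7 were raised and 0 lowered, all 14 had log2 ratios above 0, and the median was 1.48. Without OM LS replicate 2, 6 of the 14 were raised, with a median of 1.29. Their mean log2 CPM was 2.79 to 4.04 in LS and 4.46 to 5.23 in HS21, without overlap. *Ptprc* (CD45), the phosphatase of all nucleated blood cells, stood at 31.2, 12.5, 29.7, 18.0 and 25.9 CPM in LS and 91.6, 71.2, 45.4, 80.2 and 91.8 CPM in HS21 (1.70 ± 0.27, adjusted *P* = 0.0288). *Itgb2* (CD18) is the shared β chain of the leukocyte integrins, and *Itgal*, *Itgam* and *Itgax* are α chains that pair with it. *Itgb2* went from 21.6, 22.5, 20.2, 16.2 and 18.7 CPM to 43.9, 46.1, 38.5, 53.7 and 48.3 CPM, a tight change with adjusted *P* = 0.00436 and a log2 ratio of 1.22 ± 0.12. *Itgal* (LFA-1 α chain) had a log2 ratio of 2.12 ± 0.23 and *Itgax* (CD11c) 1.46 ± 0.14, with LS values of 10.2 to 18.5 and 9.47 to 12.5 CPM against HS21 values of 36.1 to 80.7 and 23.8 to 37.1 CPM. *Itgam* (CD11b) stood at 1.09 to 4.07 CPM in LS and 5.76 to 16.0 CPM in HS21 (2.27 ± 0.39, adjusted *P* = 0.0333). *Itgax* lies within the annotated span of *Itgam* on the same strand of chromosome 1, so their reads may be shared and both values are uncertain.

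Myeloid markers held fewer calls. Of 14 macrophage genes tested, 1 was raised (*Itgam*) and 0 lowered, all 14 had log2 ratios above 0 and the median was 1.23. *Csf1r*, the receptor on which macrophages depend, stood at 101, 29.9, 82.5, 65.5 and 129 CPM in LS and 227, 165, 148, 195 and 161 CPM in HS21, separated between the groups yet not past the threshold (1.14 ± 0.32, adjusted *P* = 0.147). *Cd68* gave 1.57 ± 0.34, adjusted *P* = 0.0719 and *Adgre1* (F4/80) 1.33 ± 0.33, adjusted *P* = 0.101. Of 5 dendritic cell genes 1 was raised (*Itgax*), and of 9 neutrophil genes only 2 passed the filter on low counts, of which 1 was raised. This was *S100a9*, a calcium-binding alarmin of neutrophils and monocytes, at 0.200, 0.273, 0.275, 0.348 and 0.143 CPM in LS and 3.50, 1.91, 0.728, 2.93 and 1.54 CPM in HS21 (3.06 ± 0.46, adjusted *P* = 0.028). Its LS levels would not have passed the filter, so *S100a9* was tested only through its HS21 libraries and the neutrophil count carries no weight. Raised genes outside the lists included *Fcgr3a*, an activating Fc receptor, at 6.51 to 8.92 CPM in LS and 20.2 to 78.0 CPM in HS21 (2.30 ± 0.33, adjusted *P* = 0.0255). *Lilrb4*, an inhibitory receptor, gave 2.42 ± 0.39, adjusted *P* = 0.0288, and *Slc11a1*, the metal transporter of macrophage phagosomes, 2.55 ± 0.43, adjusted *P* = 0.0317.

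Other raised genes, chosen after their values were seen, included genes known from blood cells. Receptors for lipids and peptides on leukocytes were raised, with *Fpr2* (formyl peptides) from 0.357 to 0.932 CPM in LS to 1.19 to 4.36 CPM in HS21, *Ptafr* (platelet-activating factor) from 6.01 to 11.5 to 13.7 to 28.1 CPM, and *S1pr4* (sphingosine 1-phosphate) from 0.637 to 1.14 to 2.22 to 3.21 CPM. Their log2 ratios were 2.42 ± 0.42, 1.37 ± 0.23 and 1.44 ± 0.21, with those of *Gpr132*, *P2ry10* and *Gpr31* at 1.601, 1.62 and 1.96. Signalling proteins of leukocytes were raised too. *Ptpn6* (the phosphatase SHP-1) stood at 43.4, 37.9, 37.9, 34.9 and 43.3 CPM in LS and 71.4, 62.6, 59.4, 70.5 and 72.2 CPM in HS21 (0.77 ± 0.09, adjusted *P* = 0.00868), and *Fyn*, a kinase of the T cell receptor, at 15.7, 17.6, 15.2, 13.7 and 16.9 and 28.6, 26.5, 25.4, 31.5 and 31.7 CPM (0.86 ± 0.10, adjusted *P* = 0.00868). *Pik3cd* and *Pik3r5* (PI3-kinase subunits of leukocytes) gave 1.21 ± 0.23 and 1.67 ± 0.30, *Adcy7* 1.48 ± 0.28, *Plek* 1.65 ± 0.24, *Apbb1ip* 1.504 ± 0.25, *Tagap* 2.04 ± 0.37 and *Sash3* 1.52 ± 0.28.

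*Spn* (CD43), a sialoglycoprotein of the leukocyte surface, went from 15.2, 7.37, 15.7, 11.7 and 14.2 CPM in LS to 38.8, 43.1, 29.4, 48.1 and 41.0 CPM in HS21, and with 1.64 ± 0.21, adjusted *P* = 0.0155 and 1.496 ± 0.15, adjusted *P* = 0.00691 without OM LS replicate 2 it did not rest on that library. *Gimap7*, a GTPase of lymphocytes, gave 2.53 ± 0.44, *Cd53* 1.55 ± 0.27, *Coro1a* 1.43 ± 0.25, *Clec12a* 1.69 ± 0.29 and *Trpm2*, a calcium channel of phagocytes, 1.70 ± 0.29. Transcription factors among the raised genes were *Ikzf1* (Ikaros, 1.57 ± 0.29) and *Irf5* (1.11 ± 0.20). Sensors and effectors of innate defence were *Nod2*, which binds a fragment of bacterial cell walls (2.34 ± 0.42), *Ripk3* of necroptosis (0.87 ± 0.17) and *Serpinb9*, an inhibitor of granzyme B (1.06 ± 0.20). *Il17ra*, the interleukin-17 receptor, which many cell types carry, had a small and even change, 55.7, 55.5, 55.6, 47.7 and 56.0 CPM in LS and 78.4, 79.2, 66.3, 87.4 and 86.4 CPM in HS21 (0.56 ± 0.09, adjusted *P* = 0.0288). *Tnfsf13b* (BAFF) gave 1.44 ± 0.27, *Fgl2* 1.90 ± 0.32, *Lrg1* 1.83 ± 0.30 and *Bcat1*, an aminotransferase of branched-chain amino acids, 2.04 ± 0.38. *LOC498435*, *RGD1305184* and *Fam26f* were among the 15 largest changes, at 2.80 ± 0.43, 2.74 ± 0.52 and 2.64 ± 0.40. *Fam26f* reached at most 0.533 CPM in LS, too low for the filter on low counts. It was tested only through its HS21 libraries, so its direction was not independent of the filter. *Fpr2*, also low in LS, may have passed in the same way. Of the genes in these 2 sets, *Fpr2*, *P2ry10*, *Gpr31*, *Pik3cd*, *Adcy7*, *Tagap*, *Sash3*, *Ikzf1*, *Ripk3*, *Serpinb9*, *Tnfsf13b*, *Fgl2* and *RGD1305184* were not past the threshold without OM LS replicate 2, with adjusted *P* from 0.0521 to 0.0661.

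Cytokine receptors were raised in part. Of 14 genes for cytokines and their receptors tested, 4 were raised and 0 lowered, the median was 1.30, and in 10 the groups did not overlap. *Il2rg*, the common γ chain of several interleukin receptors, stood at 7.32, 4.10, 4.33, 4.39 and 6.65 CPM in LS and 21.6, 15.3, 11.3, 22.03 and 20.02 CPM in HS21 (1.75 ± 0.24, adjusted *P* = 0.0213). *Il10ra*, which binds interleukin-10, went from 3.19 to 5.73 CPM to 10.5 to 15.01 CPM (1.49 ± 0.20, adjusted *P* = 0.0194), and *Tnfrsf1b* (TNF receptor 2) from 3.82 to 11.3 to 19.5 to 28.2 CPM (1.45 ± 0.26, adjusted *P* = 0.0392). *Il1rn*, the antagonist of the interleukin-1 receptor, went from 2.53, 1.001, 2.34, 1.05 and 3.22 CPM to 8.97, 9.02, 5.63, 10.9 and 9.04 CPM (2.09 ± 0.34, adjusted *P* = 0.0288). All 4 kept their calls without OM LS replicate 2, with log2 ratios of 1.67, 1.39, 1.26 and 1.93.

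Complement genes were raised in part as well. Of 16 complement genes tested 2 were raised and 0 lowered, with a median of 1.25 and 15 log2 ratios above 0. *C3*, the central component, stood at 24.6, 16.0, 30.3, 18.0 and 24.2 CPM in LS and 91.8, 65.7, 48.3, 92.8 and 156 CPM in HS21, HS21 replicate 15 the highest (2.01 ± 0.31, adjusted *P* = 0.028; 1.91 ± 0.32, adjusted *P* = 0.0418 without OM LS replicate 2). *C4b* went from 3.79, 7.19, 3.23, 3.20 and 2.86 CPM to 24.6, 15.7, 8.08, 24.96 and 34.8 CPM (2.42 ± 0.40, adjusted *P* = 0.0302). In *C4b* the library OM LS replicate 2 was the highest of LS, and the log2 ratio without it was 2.72. *C4a*, a close copy whose reads may be shared with *C4b* and here the more abundant of 2 genes of that name, gave 0.70 ± 0.35, adjusted *P* = 0.522. *C7*, a terminal component that was not on the list, was raised from 55.6, 45.5, 53.5, 38.3 and 78.1 CPM to 165, 117, 108, 242 and 227 CPM (1.66 ± 0.27, adjusted *P* = 0.0288).

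Of 7 NADPH oxidase genes tested, 2 were raised and 0 lowered, with a median of 1.42. They were *Ncf4*, the p40phox subunit, at 2.91 to 7.99 CPM in LS and 11.9 to 17.6 CPM in HS21 (1.35 ± 0.25, adjusted *P* = 0.0419), and *Rac2*, the GTPase of the phagocyte oxidase, at 7.65 to 18.1 and 24.8 to 58.5 CPM (1.64 ± 0.28, adjusted *P* = 0.0331). *Cybb*, the catalytic subunit of phagocytes, was at 60.4, 21.1, 55.9, 37.6 and 69.5 CPM in LS and 172, 114, 94.2, 134 and 141 CPM in HS21. Its groups did not overlap, with 1.42 ± 0.30, adjusted *P* = 0.0653 in all 10 libraries and 1.23 ± 0.21, adjusted *P* = 0.0419 without OM LS replicate 2. It was past the threshold in 6 of 18 alternative fits. A further pair of lists had no call. The 15 inflammasome and innate receptor genes had 0 raised and 0 lowered, a median of 1.07 and 14 past the unadjusted test, *Pycard* (ASC) and *Casp1* among them at 1.21 ± 0.24, adjusted *P* = 0.0567 and 1.06 ± 0.25, adjusted *P* = 0.0863. Of the 15, 8 were raised by DESeq2, 13 by limma voom with weights for library quality and 13 with the cortical score as covariate, and 0 without OM LS replicate 2. The 17 interferon response genes had 0 raised and 0 lowered, a median of 0.40 and 6 past the unadjusted test, and 6, 5 and 9 were raised in the same 3 fits, with 1 raised without OM LS replicate 2. Within these 17, *Irf1* (1.58 ± 0.31, adjusted *P* = 0.0553) and *Gbp2* (1.71 ± 0.44, adjusted *P* = 0.121), which interferon-γ induces, lay well above *Isg15* (-0.07 ± 0.21, adjusted *P* = 0.963) and *Mx1* (0.40 ± 0.34, adjusted *P* = 0.771), which type I interferon induces. That difference within the list was not tested.

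**Figure D3:**
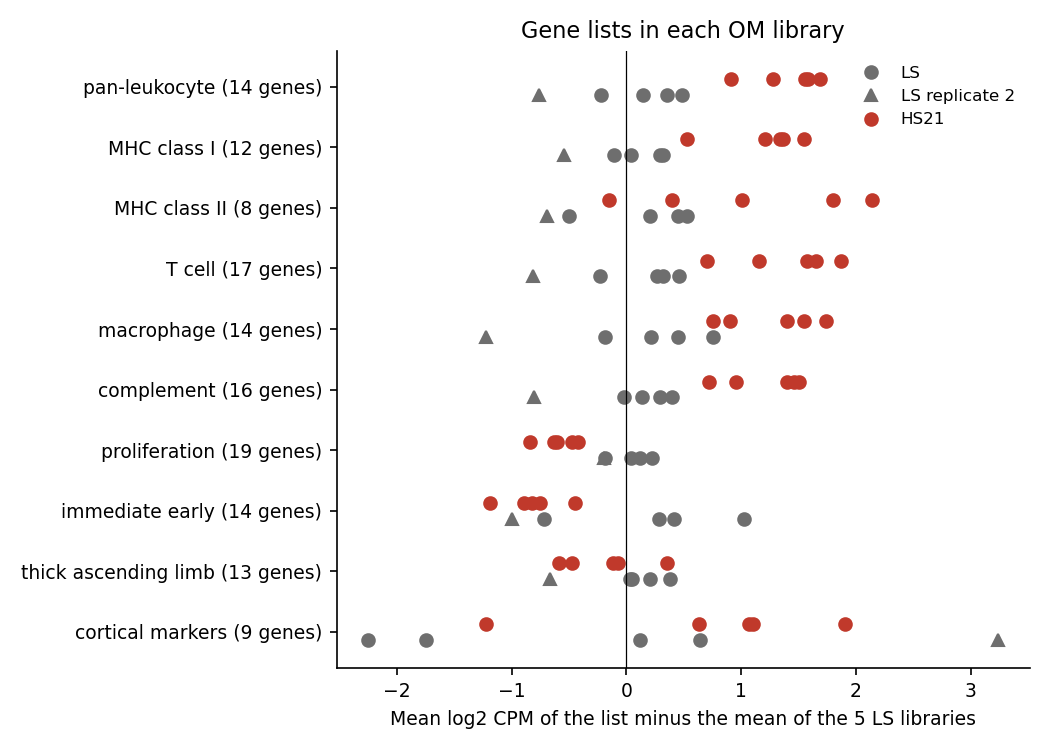
Mean level of each of 10 gene lists in the 10 OM libraries, as the difference in mean log2 CPM from the mean of the LS libraries (x axis). Grey circles are LS libraries, the grey triangle is OM LS replicate 2 and red circles are HS21 libraries; the pan-leukocyte and MHC class I lists separate the groups, the thick ascending limb list does not, and OM LS replicate 2 is far to the right for the cortical markers.

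Raised genes were also found in lists that do not mark leukocytes. *Stc2* (stanniocalcin 2, chr10:16542882-16553295), a secreted glycoprotein that the unfolded protein response induces, had the largest log2 ratio of the genes called, 3.91 ± 0.67, adjusted *P* = 0.0342, from 1.13, 1.73, 4.67, 1.81 and 1.29 CPM in LS to 22.5, 8.56, 12.7, 43.9 and 72.9 CPM in HS21. It was the 1 raised of 12 genes of ER stress and the amino acid response, whose median was 0.08, and without OM LS replicate 2 its adjusted *P* was 0.0599. *Chi3l1* was the 1 raised of 11 tubular injury genes, whose median was 0.34, and stood at 1.198, 0.455, 1.03, 0.766 and 1.22 CPM in LS and 10.1, 12.4, 4.97, 14.3 and 10.2 CPM in HS21 (3.45 ± 0.34, adjusted *P* = 0.00436). The injury markers *Havcr1* (KIM-1) and *Lcn2* (NGAL) were uneven, with *Havcr1* at 15.1, 4.66, 1.13, 13.6 and 2.01 CPM in HS21 against 5.79, 1.001, 4.12, 1.602 and 3.57 CPM in LS (1.17 ± 0.72, adjusted *P* = 0.635) and *Lcn2* at 1.05 ± 0.60, adjusted *P* = 0.592. *Hk3*, a hexokinase of myeloid cells, was the 1 raised of 17 glycolysis genes, whose median was 0.12, at 2.20, 1.001, 2.06, 1.74 and 3.22 CPM in LS and 15.6, 8.94, 6.55, 22.7 and 32.3 CPM in HS21 (3.06 ± 0.47, adjusted *P* = 0.028).

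*Ptgir*, the prostacyclin receptor, which relaxes smooth muscle, went from 2.80, 1.82, 2.20, 1.95 and 2.22 CPM to 5.15, 7.41, 4.37, 9.23 and 9.24 CPM (1.68 ± 0.25, adjusted *P* = 0.028; adjusted *P* = 0.0413 without OM LS replicate 2). *Cntfr*, the receptor of ciliary neurotrophic factor, went from 2.06, 0.910, 1.51, 1.18 and 1.36 CPM to 6.04, 2.98, 3.38, 5.54 and 10.5 CPM (2.004 ± 0.37, adjusted *P* = 0.0431), and without that library its adjusted *P* was 0.066. *Dmbt1*, a secreted scavenger protein of epithelia, went from 1.93, 1.37, 1.24, 1.05 and 2.57 CPM to 11.9, 3.74, 5.43, 11.8 and 11.4 CPM (2.44 ± 0.39, adjusted *P* = 0.0288). *Cdh4* (R-cadherin) rose from 4.73, 3.19, 5.36, 4.04 and 4.65 CPM to 9.09, 11.002, 11.3, 7.77 and 8.84 CPM (1.12 ± 0.17, adjusted *P* = 0.028). All 4 were without overlap. In *LOC100911615* 1 HS21 library differed from the rest, with 1.73, 1.18, 1.10, 1.25 and 1.72 CPM in LS and 22.8, 20.6, 11.1, 1.91 and 16.7 CPM in HS21 (3.38 ± 0.56, adjusted *P* = 0.0298), where replicate 14 lay at the edge of the LS range.

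Of the 19 lowered genes, 11 encode proteins of mitosis and the late cell cycle, a grouping made after their values were seen. They were *Cdk1*, the kinase that drives entry into mitosis, and *Ccna2*, its cyclin A2 partner. With them fell *Top2a*, which untangles sister chromatids, *Espl1*, the separase that cuts cohesin, *Bub1b* of the spindle checkpoint, and *Prc1* and *Ect2* of the midzone and cleavage furrow. The others were *Hmmr*, *Ckap2* and *Fam83d*, which bind spindle microtubules, and *Cdkn3*, a phosphatase of cyclin-dependent kinases. *Cdk1* stood at 8.85, 7.83, 7.90, 7.04 and 6.36 CPM in LS and 2.73, 2.44, 4.17, 2.87 and 2.41 CPM in HS21 (-1.37 ± 0.19, adjusted *P* = 0.0197; -1.36 ± 0.20, adjusted *P* = 0.0383 without OM LS replicate 2). *Top2a* stood at 25.8, 17.1, 29.2, 26.9 and 18.1 CPM in LS and 9.22, 9.63, 8.94, 5.92 and 12.3 CPM in HS21 (-1.35 ± 0.21, adjusted *P* = 0.0288; -1.44 ± 0.21, adjusted *P* = 0.0383 without it). *Hmmr* fell from 6.86, 6.74, 6.39, 7.39 and 6.36 CPM, a narrow range, to 2.93, 3.51, 3.11, 2.36 and 4.02 CPM (-1.08 ± 0.16, adjusted *P* = 0.028). In all 3 the highest HS21 library lay under the lowest LS library, and OM LS replicate 2 was not apart from the other LS libraries in *Cdk1* or *Hmmr*.

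The other 8 had log2 ratios from -1.66 (*Cdkn3*, from 2.86 to 4.67 CPM to 0.763 to 1.66 CPM) to -1.24 (*Bub1b*, from 2.37 to 4.32 to 1.08 to 1.91 CPM). *Ccna2* fell from 7.12, 5.37, 8.45, 7.11 and 5.15 CPM to 3.18, 1.91, 2.91, 2.23 and 3.08 CPM (-1.32 ± 0.21, adjusted *P* = 0.0288). *Prc1* fell from 14.8, 11.5, 11.3, 14.4 and 11.7 CPM to 4.83, 5.42, 8.14, 4.20 and 4.15 CPM (-1.25 ± 0.20, adjusted *P* = 0.0288). Without OM LS replicate 2, 10 of the 11 remained past the threshold and *Fam83d* did not (-1.56 ± 0.32, adjusted *P* = 0.0633). With 1 library removed at a time, *Hmmr* passed in 5 of 10 fits, the most of the 11, and *Fam83d* in 0. Over the 19 proliferation genes listed, 3 were lowered (*Cdk1*, *Ccna2* and *Top2a*) and 0 raised, 10 were past the unadjusted test downwards, and the median was -0.71. *Mki67*, the Ki-67 antigen, stood at 30.2, 17.0, 24.3, 23.1 and 16.0 CPM in LS and 12.5, 15.3, 10.5, 5.86 and 14.5 CPM in HS21, without overlap but not past the threshold (-0.92 ± 0.27, adjusted *P* = 0.158). Some genes of DNA replication, named after their values were seen, were closer to 0, with *Mcm3* at -0.05 ± 0.13, *Mcm5* at -0.23 ± 0.27 and *Pcna* at 0.08 ± 0.08. *Pcna* was the 1 gene of the 19 above 0. The other replication genes listed, *Mcm2*, *Mcm4*, *Mcm6*, *Rrm2* and *Tyms*, are not reported here, so no contrast of mitosis and replication is drawn.

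The promoters of the mitotic genes are shown for the CHR and the CCAAT box, elements known from mitotic genes as a class. These genes were grouped by role after their values were seen, and listed mitotic genes without a call were not counted apart. The shares below therefore cannot tell lowered mitotic genes from mitotic genes in general. RefSeq (GRCr8) gave a promoter for 10 of the 11 mitotic genes, *Ccna2* being the exception. In the 250 bases before the start, searched on both strands, 9 of these 10 held the CHR (TTTGAA) and the same 9 a CCAAT box (CCAAT). Over the 10038 promoters of all genes tested, 10.3% held the CHR, 35.1% the CCAAT box and 3.83% both. Among the 15 lowered genes with a promoter the same 9 held both (60%), and among the 63 raised genes 2 did (3.17%). *Bub1b* held neither. Below are *Cdk1* (chr20:19265043-19265292, plus strand), *Top2a* (chr10:84473094-84473343, minus strand), *Prc1* (chr1:143659231-143659480, plus strand) and *Hmmr* (chr10:25665216-25665465, minus strand), each ending at the base before the start, with the CHR and the CCAAT box in capitals on either strand (TTCAAA and ATTGG where reversed).
Cdk1: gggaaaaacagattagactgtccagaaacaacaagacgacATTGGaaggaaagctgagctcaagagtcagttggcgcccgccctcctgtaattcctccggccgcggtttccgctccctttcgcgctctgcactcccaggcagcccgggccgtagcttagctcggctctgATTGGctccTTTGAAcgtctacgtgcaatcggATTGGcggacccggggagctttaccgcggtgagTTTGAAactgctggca
Top2a: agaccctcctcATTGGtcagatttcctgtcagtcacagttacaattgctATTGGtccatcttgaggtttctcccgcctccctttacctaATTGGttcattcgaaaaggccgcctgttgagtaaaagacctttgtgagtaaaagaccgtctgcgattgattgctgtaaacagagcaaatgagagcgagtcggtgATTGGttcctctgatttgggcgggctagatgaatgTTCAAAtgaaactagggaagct
Prc1: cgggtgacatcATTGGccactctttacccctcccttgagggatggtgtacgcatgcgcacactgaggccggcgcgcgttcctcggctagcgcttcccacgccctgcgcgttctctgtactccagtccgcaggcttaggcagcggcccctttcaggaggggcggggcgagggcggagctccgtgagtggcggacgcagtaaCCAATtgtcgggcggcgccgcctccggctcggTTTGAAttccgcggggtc
Hmmr: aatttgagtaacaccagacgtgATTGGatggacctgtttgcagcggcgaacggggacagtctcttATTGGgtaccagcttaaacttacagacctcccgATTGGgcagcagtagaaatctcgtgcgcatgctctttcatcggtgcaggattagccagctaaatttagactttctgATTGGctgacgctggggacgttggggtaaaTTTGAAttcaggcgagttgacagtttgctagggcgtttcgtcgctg
No motif in capitals overlaps another. In *Cdk1* the CHR begins 72 and 16 bases before the start with CCAAT boxes at 210, 81 and 49, and in *Prc1* the CHR begins at 18 with CCAAT boxes at 239 and 50. The match is of letters, and no factor was measured here.

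**Figure D4:**
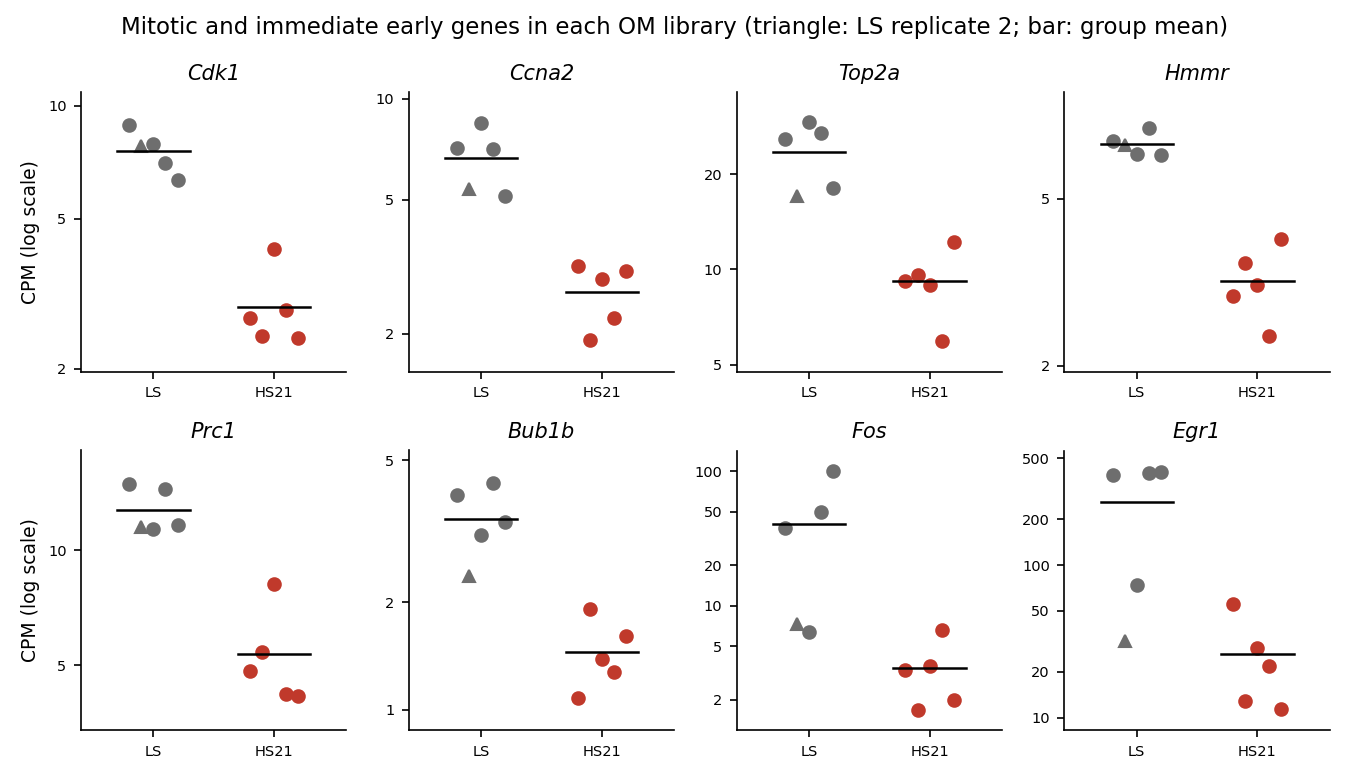
Level of 6 lowered mitotic genes and of the immediate early genes Fos and Egr1 in each of the 10 OM libraries (y axis, CPM on a log scale), with symbols as in the plot of immune genes. In the 6 mitotic genes every HS21 library lay under every LS library, and in Fos and Egr1 the LS libraries spread over more than 10-fold.

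The lowered genes outside mitosis were 8. *Entpd2*, an ectonucleotidase that degrades extracellular ATP, stood at 148, 106, 108, 131 and 123 CPM in LS and 73.1, 51.8, 83.0, 55.3 and 52.6 CPM in HS21 (-0.96 ± 0.16, adjusted *P* = 0.0288; -1.01 ± 0.16, adjusted *P* = 0.0413 without OM LS replicate 2). *Enpp1*, which makes pyrophosphate from extracellular ATP, had the smallest change and the tightest groups, 42.0, 43.4, 45.6, 46.5 and 44.5 CPM in LS and 30.2, 35.6, 33.7, 33.9 and 30.5 CPM in HS21 (-0.44 ± 0.07, adjusted *P* = 0.0288). *Slc38a2* (SNAT2), an amino acid transporter that hypertonicity induces, fell from 449, 373, 367, 558 and 552 CPM to 268, 306, 291, 279 and 261 CPM (-0.71 ± 0.14, adjusted *P* = 0.0491). It was the 1 called of 9 osmolyte and tonicity genes, whose median was -0.20. *Sphkap*, an anchor of protein kinase A, stood at 59.3, 16.7, 46.9, 43.3 and 45.8 CPM in LS and 10.2, 16.3, 7.15, 3.50 and 5.89 CPM in HS21 (-2.30 ± 0.43, adjusted *P* = 0.0431), OM LS replicate 2 being the LS library next to the HS21 range. *Rhod*, an endosomal GTPase, and *Tmem37*, a calcium channel γ-like protein, gave -0.56 ± 0.10 and -0.55 ± 0.10. *AABR07015081.2* and *AABR07015078.1* lie within 10 kb on chromosome 14 on opposite strands and have no known role. Their log2 ratios were -2.33 ± 0.42 and -2.18 ± 0.38, and OM LS replicate 2 was the highest library for both, at 268 and 31.6 CPM.

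Immediate early genes, which stimuli switch on within minutes, were uneven among the LS libraries. Of 14 tested 0 were raised and 0 lowered, 7 passed the unadjusted test downwards, and the median was -0.77. *Fos* stood at 37.7, 7.37, 6.39, 50.0 and 101 CPM in LS and 3.31, 1.68, 3.58, 6.56 and 2.01 CPM in HS21, and *Egr1* at 387, 31.8, 74.4, 402 and 409.9 and 55.6, 12.8, 28.8, 21.8 and 11.4 CPM. LS replicates 1, 4 and 5 were high in both, and LS replicates 2 and 3 came near the HS21 range or into it. With all 10 libraries neither passed (-3.55 ± 0.78, adjusted *P* = 0.0747 for *Fos* and -3.32 ± 0.76, adjusted *P* = 0.0805 for *Egr1*), and without OM LS replicate 2 both did (-3.82 ± 0.69, adjusted *P* = 0.0492 and -3.61 ± 0.61, adjusted *P* = 0.0413). The exact permutation test gave *P* = 0.0159 for both in the 10 libraries.

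Of the 29 genes past the threshold without OM LS replicate 2 but not with all 10 libraries, the 10 protein-coding genes with the smallest *P* were examined. *Plac8* stood at 4.73, 14.7, 4.19, 4.67 and 5.22 CPM in LS and 13.5, 25.5, 12.6, 25.5 and 24.6 CPM in HS21, where OM LS replicate 2 reached the HS21 range (1.61 ± 0.39, adjusted *P* = 0.0975, and 2.11 ± 0.26, adjusted *P* = 0.0159 without it). *Pmepa1* and *Smad7*, inhibitors and targets of TGF-β signalling, were lower in HS21, at -0.95 ± 0.14, adjusted *P* = 0.0401 and -0.52 ± 0.07, adjusted *P* = 0.0261 without that library against -0.84 ± 0.18, adjusted *P* = 0.0662 and -0.43 ± 0.11, adjusted *P* = 0.121 with it. The other 7 were *Slc44a3*, *Ggact*, *Dusp2*, *Tex14* and *Tmeff1*, all lower, and *Samsn1* and *Sh2d1b*, both higher. 

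No list of tubule or vessel genes held a called gene. Of 13 thick ascending limb genes 0 were raised and 0 lowered, with a median log2 ratio of -0.17 and a range from -0.62 to 0.28. *Slc12a1* stood at 6499, 2467, 6102, 6058 and 7575 CPM in LS and 7142, 6122, 4992, 3542 and 3762 CPM in HS21 (-0.17 ± 0.31, adjusted *P* = 0.926), OM LS replicate 2 the lowest, and *Umod* gave -0.30 ± 0.18, adjusted *P* = 0.622. The lists of Na-K-ATPase subunits (10 genes, median 0.12), principal cells (11 genes, -0.06), intercalated cells (12 genes, -0.01), proximal straight tubule (7 genes, -0.06), endothelium (13 genes, 0.11) and smooth muscle and pericytes (7 genes, 0.13) had 0 raised and 0 lowered as well. *Aqp2*, the water channel of principal cells, stood at 274 to 1439 CPM in LS and 454 to 921 CPM in HS21 (-0.07 ± 0.37, adjusted *P* = 0.981). Without OM LS replicate 2 the median turned sign for the proximal straight tubule (0.37) and endothelium (-0.05) and was 0.49 for smooth muscle and pericytes. For proximal convoluted tubule genes (18 tested, 0 called) it moved from -0.30 to 0.43, so no direction is given for these 3 tubule and endothelial lists. With quality weights 2 thick ascending limb genes were lowered and 2 smooth muscle and pericyte genes raised.

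Genes of tonicity and hormones held 1 called gene, *Slc38a2*. *Nfat5*, the tonicity-responsive factor, stood at 854, 198, 709.8, 733 and 787 CPM in LS and 833, 684, 333, 311 and 353 CPM in HS21 (-0.38 ± 0.41, adjusted *P* = 0.84). Its targets *Akr1b1* (aldose reductase) and *Slc6a12* (the betaine transporter) gave 0.08 ± 0.33 and 0.09 ± 0.52, with SEs wide enough to hold a change of more than 1 log2 unit in *Slc6a12*. The lists of aldosterone and WNK signalling (12 genes, median -0.03), renin-angiotensin (9 genes, -0.15), endothelin and nitric oxide (11 genes, 0.28) and prostanoids (14 genes, 0.11) had 0 raised and 0 lowered. The renin-angiotensin median turned to 0.22 without OM LS replicate 2, so it has no direction here. *Gucy1a3*, a subunit of the nitric oxide receptor, came nearest, at 16.0, 16.9, 15.5, 11.9 and 18.6 CPM in LS and 22.2, 25.6, 22.6, 34.6 and 37.4 CPM in HS21 (0.85 ± 0.18, adjusted *P* = 0.0676). *Fkbp5*, a target of corticosteroid receptors, gave 1.08 ± 0.29, adjusted *P* = 0.132.

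No metabolic list held a lowered gene. The 19 TCA cycle genes had a median of 0.05 and a range from -0.17 to 0.20, the 18 fatty acid oxidation genes a median of -0.21 with all 18 below 0, and the 8 lysine degradation genes a median of -0.07. Without OM LS replicate 2 the fatty acid oxidation median was -0.07 and that of lysine degradation turned to 0.28. In this last list *Echs1*, a mitochondrial enoyl-CoA hydratase, was at 37.5, 2.37, 29.9, 2.36 and 3.48 CPM in HS21 and at 2.06, 2.64, 2.06, 2.58 and 1.79 CPM in LS. HS21 replicates 11 and 13 lay far above the other 8 libraries, which overlapped (2.76 ± 0.84, adjusted *P* = 0.179). Hypoxia genes (11 tested, median 0.02), antioxidant genes (14 tested, -0.03), cholesterol genes (10 tested, 0.18) and 11 mitochondrially encoded genes (-0.07) had 0 raised and 0 lowered, and without OM LS replicate 2 the antioxidant median turned to 0.196. The 16 circadian clock genes had 0 raised and 0 lowered, with *Arntl* (BMAL1) at -1.03 ± 0.28, adjusted *P* = 0.135 and *Cry1* at 1.02 ± 0.22, adjusted *P* = 0.0713. Of 21 matrix and fibrosis genes 0 were called, with a median of 0.55 and 17 log2 ratios above 0, and with quality weights 11 were raised and 1 lowered. *Mmp12*, the macrophage elastase, gave 1.40 ± 0.30, adjusted *P* = 0.0671, and *Tgfb1* 0.83 ± 0.22, adjusted *P* = 0.122. Other tissues that a dissected piece can hold left no call, with 4 red blood cell genes (median 0.68), 5 adipocyte genes (0.07, and -0.14 without OM LS replicate 2) and 2 urothelium genes (-0.16) at 0 raised and 0 lowered.

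The genes called at HS21 were also read at 14 d of high salt. HS14 and HS21 share the LS libraries, so their values are set side by side without a test of likeness. The HS14 replicate 10 library held 5.41 M counts and the other 4 HS14 libraries held 13.02 to 16.56 M. The study's mapping summary also gave HS14 replicate 10 the lowest exonic share of the OM libraries. The HS14 ratios of genes given below include this library. By the same test, HS14 over LS gave 1 gene raised and 0 lowered of 14417. Without OM LS replicate 2 it gave 0 raised and 0 lowered, and without HS14 replicate 10 it gave 4 raised and 0 lowered. Of the 93 genes raised at HS21, 88 had a value at HS14, with a median log2 ratio of 0.90 over LS against 1.66 at HS21, and the 19 lowered genes had -0.998 against -1.35. These genes were chosen by their HS21 ratios, which enlarges the HS21 medians, so the gap between the times is not a measured growth. *Chi3l1* was at 2.72 ± 0.31 after 14 d and 3.45 ± 0.34 after 21 d, *Stc2* at 3.54 ± 0.79 and 3.91 ± 0.67, and *Itgal* at 1.196 ± 0.29 and 2.12 ± 0.23. *Ccl5* was at 0.62 ± 0.41 after 14 d and 3.74 ± 0.66 after 21 d, *Psmb8* at 0.59 ± 0.65 and 2.01 ± 0.27, and *Cxcl9* at 0.45 ± 0.54 and 2.65 ± 0.48. *Cdk1* was at -1.13 ± 0.27 and -1.37 ± 0.19. The 5 HS21 libraries were then tested against the 5 HS14 libraries. No gene was raised or lowered by edgeR (337 and 210 by the unadjusted test), while DESeq2 called 20 raised and 10 lowered. Among the genes called at HS21 over LS, the smallest edgeR adjusted *P* was 0.954 for those raised and 0.961 for those lowered. By edgeR, then, no difference between the times was detected in them. Which genes DESeq2 called is not reported here.

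The same diet in the Cx moved far more genes: 2702 of 14299 were raised there (18.9%) and 2936 lowered (20.5%). Of the 93 genes raised in the OM, 91 were tested in the Cx, where 84 were raised and 1 lowered, and of the 19 lowered in the OM 14 were lowered in the Cx. The Cx libraries are other samples, possibly of the same rats, and the counts stand beside the shares of 18.9% and 20.5% over all genes. The difference between the tissues was tested by the interaction of tissue and diet, which passed the threshold for 101 of 15194 genes (0.665%), 68 with the change in the OM above that in the Cx and 33 below. Scaling to total counts gave 57 and 54, as it moved the median difference of all genes from -0.06 to -0.16 on the log2 scale. Of the genes called in the OM, 3 passed this test. *Stc2* was 0.47 ± 0.24 in the Cx and 3.91 ± 0.67 in the OM (difference 3.43 ± 0.73, adjusted *P* = 0.0345). *Cdh4* fell in the Cx and rose in the OM, at -0.83 ± 0.29 and 1.12 ± 0.17 (difference 1.95 ± 0.35, adjusted *P* = 0.0138). *Entpd2* was 0.11 ± 0.08 in the Cx and -0.96 ± 0.16 in the OM (difference -1.07 ± 0.19, adjusted *P* = 0.0115). *Umod*, not called in the OM, rose in the Cx (0.71 ± 0.13), and the difference passed as well (-1.01 ± 0.22, adjusted *P* = 0.0415). The differences of *Cdh4* and *Entpd2* passed in all 25 alternative fits, while that of *Stc2* passed in 11 of them and that of *Umod* in 8, with adjusted *P* up to 0.0742 and 0.0875.

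For the immune and mitotic genes checked, the difference between the tissues did not pass. The difference of OM minus Cx was -0.20 ± 0.38 for *Itgal* (adjusted *P* = 0.838), 0.54 ± 0.90 for *Ccl5* (0.813), 0.33 ± 0.35 for *Cd74* (0.675) and -0.07 ± 0.29 for *Cdk1* (0.93). A *P* that misses the threshold does not show equal change. *C7* had 1.66 ± 0.27 in the OM and 0.27 ± 0.23 in the Cx, a difference of 1.38 ± 0.38 (adjusted *P* = 0.1), and *Sphkap* -2.30 ± 0.43 and 0.63 ± 0.53, a difference of -2.94 ± 0.73 (adjusted *P* = 0.0716), neither past the threshold in this fit. The call depended on the fit: *C7* passed in 3 and *Sphkap* in 4 of 25 alternative fits. Both passed by DESeq2, with the replicate number as a block (adjusted *P* = 0.0246 for both) and without OM LS replicate 2 (adjusted *P* = 0.0474 for *C7* and 0.0144 for *Sphkap*), the last among 1275 genes.

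**Figure D5:**
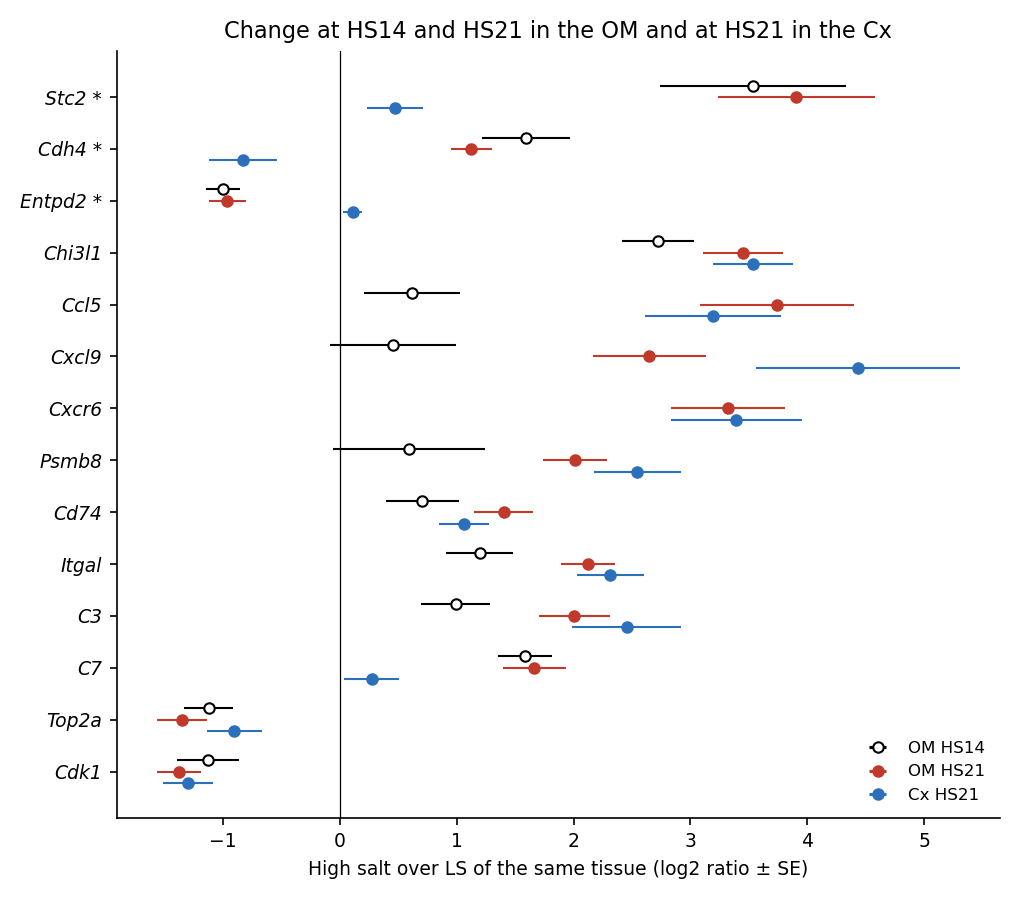
Log2 ratio over LS with SE (x axis) of 14 genes in the OM at HS14 (open circles), the OM at HS21 (red) and the Cx at HS21 (blue). Stc2, Cdh4 and Entpd2, marked with an asterisk, passed the test of a difference between OM and Cx; the other genes shown did not. Cxcr6 had no value at HS14.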

How the data were processed

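Counts on 32545 genes were deposited by the authors, who prepared poly(A) libraries without strand information, sequenced them paired-end, aligned reads with HISAT2 (2.0.5) to Rnor_6.0 and counted them per gene with featureCounts (1.5.0-p3). Reads from overlapping genes on opposite strands therefore cannot be told apart. The deposited FPKM columns and the authors' own DESeq2 comparisons (fold changes and p-values) were not used.

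Genes were kept by filterByExpr, scaled by TMM and tested by edgeR (4.0.16, R 4.3.3) quasi-likelihood, 5 against 5 libraries, with Benjamini-Hochberg adjustment over all genes tested and a threshold of 0.05. SE is the absolute log2 ratio divided by the square root of F. Log2 CPM used a prior count of 2. No pair of libraries within a group agreed within counting noise (20 pairs, at least 10.1 times the noise per gene). The test was also run on counts simulated from its own model. These lacked the order of libraries that the raised genes share, so that run does not vouch for the calls here. Of 620 listed symbols 609 matched the table. Promoters came from RefSeq (GRCr8), of which only sequences were used. Alternatives were other scalings, no filter, DESeq2 (1.42.0), limma (3.58.1) voom with quality weights, robust dispersions, all 15 OM libraries, a cortical score as covariate and each library left out.

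Named genes were the 15 raised protein-coding genes with the largest log2 ratio and a mean of at least 1 CPM, every lowered gene, up to 4 genes a list by *P*, segment markers, and the 10 genes with the smallest *P* among those called only without OM LS replicate 2. Other genes named were chosen after their values were seen. Some genes that these rules name are not reported here. The comparison and gene lists were chosen with earlier results of these data known. Depth limits low genes most, as 1 CPM was 11.0 to 15.7 reads in these libraries.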

Additional observations from a re-analysis of the deposited data

Results flagged for a closer look

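Within a group of 5 libraries, a value was marked as far from the others where its gap to the nearest exceeded 0.71 of the range. This held for 22 of 308 sets of 5 checked, where chance alone marks about 1 in 20. OM LS replicate 2 was the library marked for the cortical genes *Slc12a3* (377 CPM, next 21.99) and *Synpo* (29.6, next 13.1), and for *C4b* (7.19 CPM), *Plac8* (14.7), *Sh2d1b* (1.37), *Nfat5* (198, the lowest) and *Mcm3* (7.92, the lowest). Without it the log2 ratios were -0.62 for *Nfat5* and -0.13 for *Mcm3*, neither past the threshold, and 2.72 for *C4b*, 2.11 for *Plac8* and 2.53 for *Sh2d1b*, all past it. HS21 replicate 13 was marked as the lowest of its group for *Casp1* (9.86 CPM), *Coro1a* (49.7), *Cxcl10* (16.7), *Myo1g* (17.0) and *Ripk3* (8.81), and as the highest for *Cdk1* (4.17). For *Casp1* and *Cxcl10* its value lay inside the LS range, and for the other genes between the LS libraries and the rest of HS21. HS21 replicate 15 was the highest for *AABR07015081.2* (62.5 CPM) and *AABR07015078.1* (6.16), HS21 replicate 11 for *Lcn2* (65.6) and *Smad7* (71.7) and HS21 replicate 12 for *Rhod* (26.2). In LS, replicate 3 was the highest for *Stc2* (4.67 CPM), replicate 1 for *Fam26f* (0.533) and *Ckap2* (8.59), and replicate 4 the lowest for *Il17ra* (47.7).

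The change in the OM differed from that in the Cx, by the interaction of tissue and diet, for *Stc2* (3.43 on the log2 scale), *Cdh4* (1.95), *Entpd2* (-1.07) and *Umod* (-1.01). *Cdh4* was raised in the OM and lowered in the Cx, and *Entpd2* was lowered in the OM and not called in the Cx. The cause of these differences was not tested.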

How the results depend on the processing

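The 93 raised and 19 lowered genes became 35 and 9 with scaling to total counts, 555 and 166 with DESeq2, 944 and 1447 with limma voom and quality weights, 179 raised with all 15 OM libraries, and 707 and 164 with the cortical score as covariate. Leaving out 1 library gave 9 to 159 raised and 0 to 31 lowered genes, and 564 to 1083 genes without overlap. List members raised were 33, with 15 on total counts, 123 by DESeq2, 158 with quality weights, 66 in all 15 OM libraries, 137 with the covariate and 4 to 56 with 1 library left out. List members lowered were 4, with 2, 15, 25 and 10 on total counts, by DESeq2, with quality weights and with the covariate, and 0 to 8 with 1 library left out. Quality weights gave OM LS replicates 2 and 5 the lowest weights (0.308 and 0.326), and the cause of the shift to lowered calls was not tested. The other counts kept within 1.5 times. Over the named genes past the threshold no log2 ratio changed sign in 1728 refits, and 679 of these missed the threshold.

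Direction turned in 6 genes that were not called. With quality weights *Slc12a3* was 0.91, *Aqp2* 0.0030 and *Slc6a12* -0.050. With the covariate *Slc12a1* was 0.062, *Aqp2* 0.27 and *Isg15* 0.081. With 1 library left out *Slc12a3* was -1.81 to 1.03, *Aqp2* -0.28 to 0.31, *Akr1b1* -0.11 to 0.44, *Isg15* -0.20 to 0.021 and *Slc6a12* -0.20 to 0.34. For *Slc12a3* the turn came without OM LS replicate 2.

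The 101 genes past the tissue by diet test were 58 without the filter, 540 by DESeq2 and 42 to 1275 with 1 library left out, the highest without OM LS replicate 2. With the replicate number as a replicate block they were 94. The study dissected kidneys to both tissues, but the labels do not say that equal numbers are 1 rat, and the deviations of OM and Cx libraries of the same number correlated at -0.071 to 0.104 in LS and 0.238 to 0.439 in HS21. Every HS21 library and LS replicates 1, 3 and 4 correlated best with their own number, while LS replicates 2 and 5 did not. Equal numbers may thus be the same rat, but as no label says so the samples were not treated as paired in the main fit. The block brought *C7* and *Sphkap* past the threshold (adjusted *P* = 0.0246 for both) and changed no call of *Stc2*, *Cdh4*, *Entpd2* or *Umod*. HS21 against HS14 gave 20 raised and 10 lowered genes by DESeq2, and 0 to 1 raised and 0 lowered with 1 library left out. A level of 1 CPM rests on at most 15.7 reads a library.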

Other observations

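Genes of vessel adhesion were read apart from the leukocyte genes that bind to them. Of 11 leukocyte adhesion genes tested, 2 were raised (*Itgal* and *Itgb2*) and 0 lowered, with a median log2 ratio of 1.31 and all 11 above 0. *Vcam1*, the ligand on activated endothelium for the integrins of lymphocytes and monocytes, stood at 21.1, 9.56, 18.8, 16.1 and 30.7 CPM in LS and 42.4, 43.5, 32.2, 49.9 and 70.3 CPM in HS21. The HS21 libraries lay above all LS libraries, with a log2 ratio of 1.31 ± 0.29, adjusted *P* = 0.0785, which did not pass the threshold, and 1.14 ± 0.25, adjusted *P* = 0.0744 without OM LS replicate 2. Among antioxidant genes *Hmox1*, the haem oxygenase that macrophages also carry, stood at 4.06, 2.46, 2.75, 3.27 and 3.50 CPM in LS and 8.33, 6.42, 3.71, 7.39 and 12.9 CPM in HS21 (1.27 ± 0.30, adjusted *P* = 0.0906).

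Lists of other segments held no called gene. The 5 distal convoluted tubule genes had a median log2 ratio of -0.59, and -0.15 without OM LS replicate 2. The 8 podocyte genes had a median of -0.15, and 0.91 without that library, where *Synpo* was the 1 called. The 5 thin limb and vasa recta genes had a median of -0.07.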
